A study of Mus musculus with 2 samples.

Results

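The interferon-induced GTPases examined here were 8 genes of the guanylate-binding protein (GBP) and immunity-related GTPase (IRG) families, out of 52636 gene IDs in each count matrix. They were taken by name, and all 8 were found in both matrices: the GBPs Gbp2, Gbp3 and Gbp7, and the IRGs Igtp, Irgm1, Irgm2, Iigp1 and Ifi47. Levels were compared by genotype and by cell class, with the classes rebuilt from marker genes. Droplet libraries were made from the intestines of 2 mouse embryos at E18.5, late in gestation, on the C57BL/6 background. One embryo was Casp8 C362A/C362A Mlkl -/- (Casp8-mutant) and the other was Mlkl -/- (Mlkl-null), so both lacked MLKL, the pore-forming executioner of necroptosis. The Casp8 allele replaces the catalytic cysteine of caspase-8, a protease of the extrinsic cell death pathway. The tissue is given in the labels both as whole and as small intestine.

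GBPs and IRGs are GTPases that interferons induce through STAT and IRF transcription factors. In infected mouse cells they gather on vacuoles that hold bacteria or parasites and help to break them open, and GBPs also take part in inflammasome activation by bacterial lipopolysaccharide. Among the IRGs, Irgm1, Irgm2 and Igtp (also called Irgm3) are regulators that reside on the cell's own membranes and hold the effector IRGs inactive there. Iigp1 (Irga6) and Ifi47 (Irgd) belong to the effector group. Interferons act on gene starts through the interferon-stimulated response element (ISRE), bound by IRF and ISGF3 complexes, and the gamma-activated site (GAS).

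In GENCODE M21 (GRCm38) the GBPs and 4 of the IRGs lay in clusters. Gbp7 (ENSMUSG00000040253, 3:142530342-142550149), Gbp3 (ENSMUSG00000028268, 3:142560026-142573209) and Gbp2 (ENSMUSG00000028270, 3:142620602-142638008) followed each other on the plus strand of chromosome 3. Chromosome 11 held Irgm1 (ENSMUSG00000046879, 11:48861968-48871683, minus strand), Ifi47 (ENSMUSG00000078920, 11:49076587-49096974, plus strand), Igtp (ENSMUSG00000078853, 11:58199556-58207591, plus strand) and Irgm2 (ENSMUSG00000069874, 11:58199618-58222782, plus strand). Igtp and Irgm2 overlap on the same strand in this annotation, so the split of reads between this pair is uncertain. Ifi47 overlaps Olfr56 on the same strand, to which 12 UMIs were assigned in the Casp8-mutant library and 3 in the Mlkl-null library.

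The sequence just upstream of the gene start is shown because ISRE and GAS are elements of gene starts. Whether they play a part in the levels given below was not tested. Windows of 250 bases before the RefSeq start (GRCm38.p6) were used for 7 of the 8 members, Iigp1 not being analysed here, and Gbp3 had 2 annotated starts. The ISRE core was searched on both strands as a pair of TTTC half-sites with any 2 bases between them, and GAS as TTCNNNGAA, which reads the same on both strands. An ISRE core lay in the windows of 6 of the 7 genes, against 936 of all 27025 genes with RefSeq windows of that length. By window it lay in 6 of the 8 member windows, against 2.98% of all 32851 windows. The matches in 30-base stretches, 5′ to 3′ on the strand of each gene, with the ISRE core match or 2 overlapping matches in capitals, were as follows.
Gbp2 chr3:142620594-142620623: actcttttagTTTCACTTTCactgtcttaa
Gbp3 chr3:142559992-142560021: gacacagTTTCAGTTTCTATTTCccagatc
Gbp7 chr3:142530273-142530302: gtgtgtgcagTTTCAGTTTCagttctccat
Irgm1 chr11:48871428-48871457: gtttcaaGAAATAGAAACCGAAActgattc
Igtp chr11:58199512-58199541: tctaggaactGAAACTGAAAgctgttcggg
Irgm2 chr11:58214903-58214932: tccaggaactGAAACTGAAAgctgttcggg
The first base of the match lay 59 bases upstream of the start in Gbp2, 53 in Gbp7, 34 in Igtp and 64 in Irgm2. Gbp3 had matches at 45 and 39 bases, and Irgm1 at 30 and 24 bases. The stretches of Gbp2 and Irgm1 overlap exons of the longer GENCODE gene models. No match was found in the window of Ifi47 or in that of the second Gbp3 start, which says only that these letters are not in these windows.

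GAS matches lay in 3 of the 7 genes, against 2197 of all 27025 genes, and in 3 of the 8 member windows, against 7.02% of all windows. The 120 bases before the start of these 3 genes, with GAS and ISRE core matches in capitals, were as follows.
Gbp7 chr3:142530216-142530335: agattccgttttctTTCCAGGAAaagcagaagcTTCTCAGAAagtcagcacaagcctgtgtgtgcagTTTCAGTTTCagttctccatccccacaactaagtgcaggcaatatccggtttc
Igtp chr11:58199436-58199555: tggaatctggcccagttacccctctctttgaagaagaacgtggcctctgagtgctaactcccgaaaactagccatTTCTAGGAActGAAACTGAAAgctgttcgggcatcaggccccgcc
Irgm2 chr11:58214857-58214976: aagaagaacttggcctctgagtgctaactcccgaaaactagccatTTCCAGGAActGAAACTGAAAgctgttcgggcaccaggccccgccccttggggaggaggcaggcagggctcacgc
In Igtp and Irgm2 the GAS match, beginning 45 and 75 bases upstream, ended 2 bases before the ISRE core. The 250-base windows of Igtp and Irgm2 were identical in 69.1% of aligned columns. Gbp7 had GAS matches at 106 and 87 bases. Windows with both motifs made up 0.332% of all windows, 109 in number. A match is a description of the letters and not evidence of binding.

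**Figure D1:**
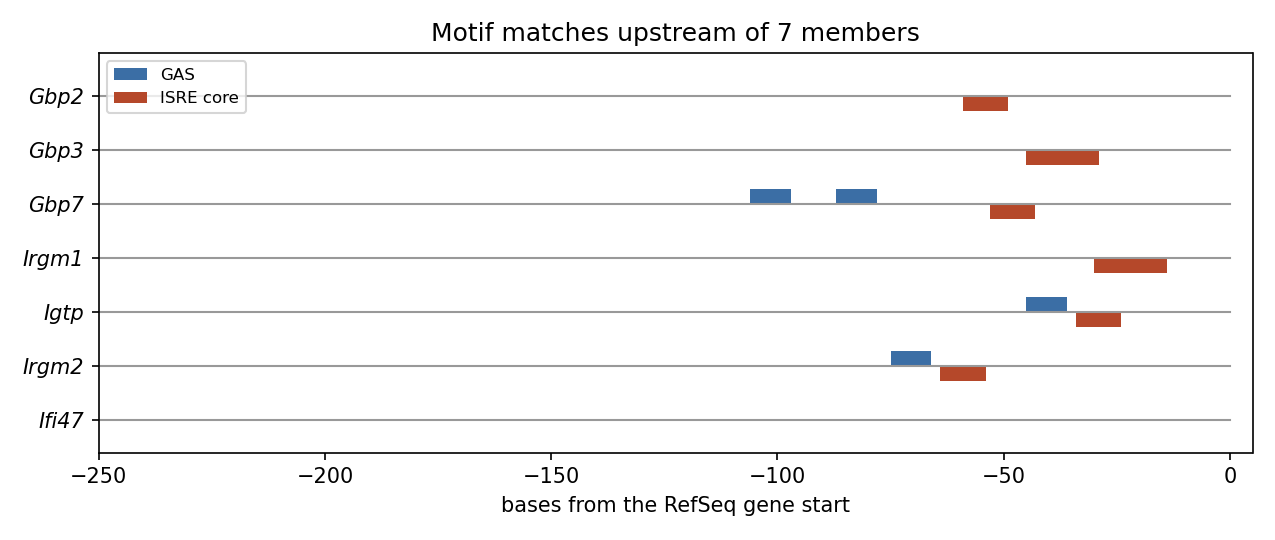
Positions of ISRE core (red, below each line) and GAS (blue, above each line) matches in the 250 bases before the RefSeq start of 7 members, with the x axis in bases from the start. Every match lies within 106 bases of the start, and the paired GAS and ISRE core matches of Igtp and Irgm2 lie 2 bases apart; Ifi47 has none.

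The Casp8-mutant matrix comprised 1014 barcodes with 2804929 UMIs (unique molecular identifiers, each counting 1 captured transcript), and the Mlkl-null matrix 1478 barcodes with 6290008. After filtering, 873 Casp8-mutant and 1435 Mlkl-null cells remained, with medians of 1957 and 3707 UMIs per cell. The libraries shared 2 barcodes. The Casp8-mutant library had 8478 Xist and 2 Ddx3y UMIs and the Mlkl-null library 2 Xist and 277 Ddx3y UMIs, so sex, embryo and library cannot be told apart from genotype. Casp8 had 235 UMIs in the Casp8-mutant and 401 in the Mlkl-null library, and Mlkl 13 and 1, but tags at the 3′ end read neither the C362A codon nor, as far as the labels say, the deleted part of Mlkl, and so check no genotype. With 1 embryo per genotype there is no replicate spread and no test, and all intervals below are 95% intervals that cover counting error only.

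Over all barcodes the regulator IRG Irgm1 had 293 UMIs in the Casp8-mutant library and 24 in the Mlkl-null library. Iigp1, the effector IRG, had 192 UMIs in the Casp8-mutant library and 1 in the Mlkl-null library. Gbp7 had 217 UMIs in the Casp8-mutant library and 95 in the deeper Mlkl-null library. The other members had 100 to 233 UMIs in the Casp8-mutant library and 13 to 24 in the Mlkl-null library. Each member was therefore captured more often in the library with fewer total UMIs.

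Member transcripts were also found in droplets that held little but haemoglobin. Barcodes of under 500 genes in which haemoglobin made up most UMIs, which were left out of the classes, numbered 121 in the Casp8-mutant library and 38 in the Mlkl-null library. Those of the Casp8-mutant library held 20 member UMIs, or 499.8 (305–772) per 1 M non-haemoglobin UMIs, and those of the Mlkl-null library held 0. Casp8-mutant epithelial-like cells had 584 on the same scale, inside that interval. Within a library, one source of free RNA keeps its genes in a fixed ratio, so member UMIs were set against UMIs of 15 epithelial markers. In the Casp8-mutant library there were 8.26 member UMIs per 100 epithelial marker UMIs in the haemoglobin-dominated barcodes. The same ratio was 5.96 in epithelial-like, 5.27 in mixed endocrine-like and 4.76 in granulocyte-like cells, and the interval of each over the haemoglobin-dominated barcodes spanned 1. It was 39.9 in stromal-like cells, 4.83-fold (3.01–8.15) that of the haemoglobin-dominated barcodes. It was 35.3 in myeloid-like cells, 4.27-fold (2.60–7.34), and 27.9 in lymphoid-like cells, 3.38-fold (1.71–6.67). It was 16.9 in erythroid-like cells, 2.04-fold (0.954–4.25). Relative to epithelial transcripts, members were thus higher in stromal-like, myeloid-like and lymphoid-like cells than in the haemoglobin-dominated barcodes. Epithelial-like and mixed endocrine-like cells carry the epithelial markers themselves, so this ratio does not separate their own transcripts from free ones of epithelial origin. Granulocyte-like cells held 7219 epithelial marker UMIs per 1 M non-haemoglobin UMIs, near the 7339 of mixed endocrine-like cells, so the ratio does not separate the sources there either. The part of free RNA in these classes was not tested.

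Epithelial-like cells carried the clearest difference: all 8 members were higher in Casp8-mutant cells, with ratios from 7.89 for Gbp7 to 139 for Gbp3 among the 6 seen in both libraries, and Gbp2 and Iigp1 at 0 UMIs in Mlkl-null cells. The class held 589 Casp8-mutant and 1187 Mlkl-null cells, with 15 of 15 epithelial markers detected in each. Summed over the 8 members there were 1167 UMIs in Casp8-mutant and 113 in Mlkl-null epithelial-like cells. That is 578 (545–612) and 21.2 (17.4–25.4) UMIs per 1 M UMIs of the class (CPM), a ratio of 27.2 (22.5–33.4) or 4.77 on the log2 scale. The 5 IRGs differed 38.6-fold (29.4–52.6) and the 3 GBPs 17.3-fold (13.3–23.2), intervals that do not overlap. This order rests on Gbp7, which held 58 of the 61 Mlkl-null GBP UMIs. Without it, Gbp2 and Gbp3 summed to 228 UMIs in Casp8-mutant and 3 in Mlkl-null cells, a ratio of 173 (67.9–982), above that of the IRGs.

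At least 2-fold higher levels were found for 8 of 8 members, against 18.2% of the 13967 genes with 20 or more UMIs in the class. At least 8-fold higher levels were found for 7 of 8, against 1.81% of those genes. Apart from Gbp7, the members reached 20 UMIs only through the Casp8-mutant cells, where they were high. The members were also chosen with earlier results of these data known, so these counts are descriptions and no support for a difference. The median log2 ratio was 5.28 over the members, with genes at 0 in Mlkl-null cells set to a floor of 3 UMIs, and -0.17 over all measured genes. No embryo was replicated, so these are descriptions of 2 libraries.

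**Figure D2:**
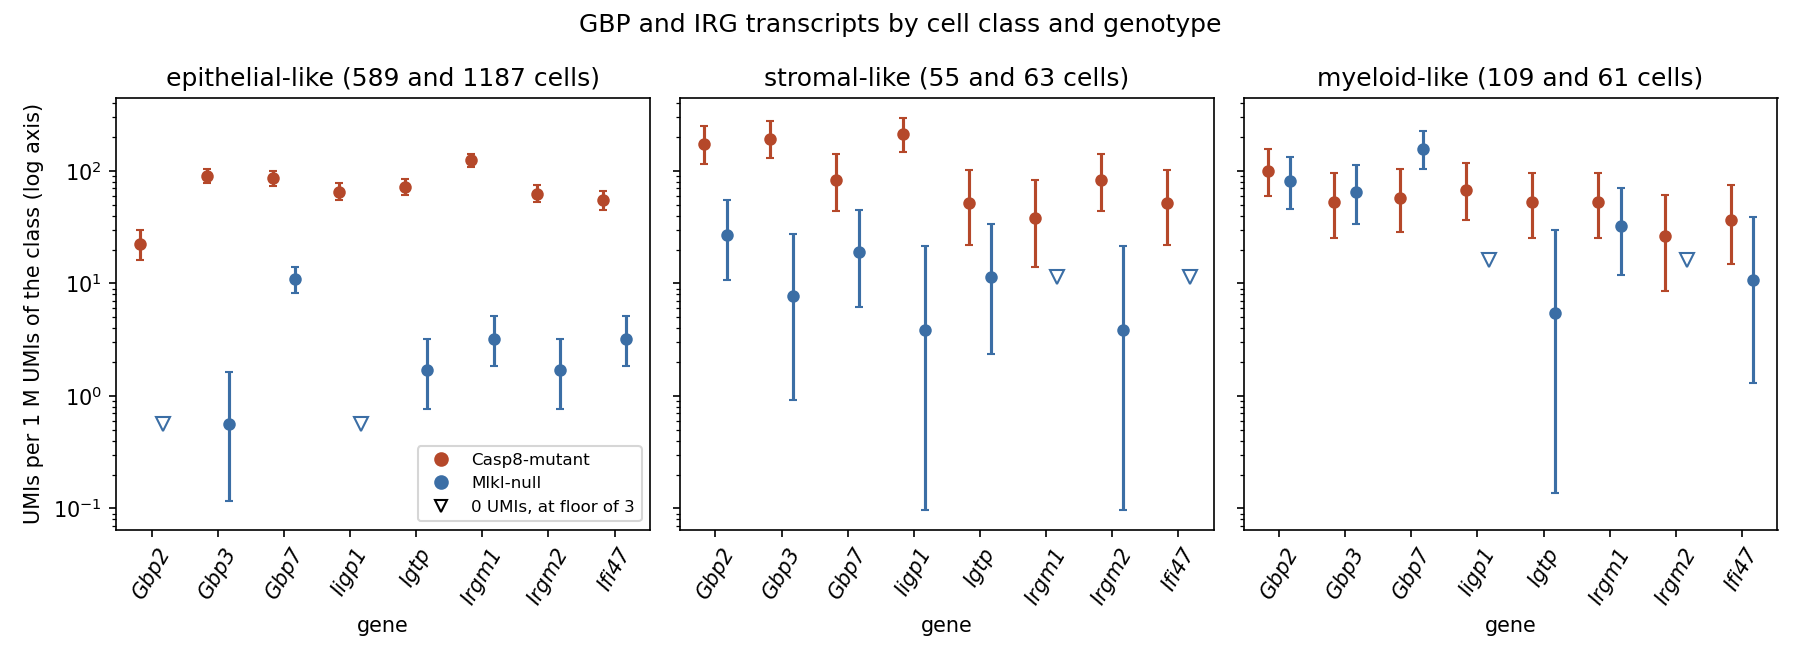
Level of each member in UMIs per 1 M UMIs of the class (log axis) in epithelial-like, stromal-like and myeloid-like cells, Casp8-mutant in red left of Mlkl-null in blue, with 95% Poisson intervals and open triangles at a floor of 3 UMIs where none was counted. Epithelial-like levels differ for every member, while in myeloid-like cells the intervals of the 3 GBPs overlap or, for Gbp7, lie higher in Mlkl-null.

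Among the GBPs, Gbp2, which coats parasite vacuoles in infected mouse cells, had 45 UMIs in Casp8-mutant and 0 in Mlkl-null epithelial-like cells. That is 22.3 (16.3–29.8) CPM in Casp8-mutant cells, at least 39.7-fold higher when 3 UMIs are taken as the limit for the Mlkl-null class; the 95% interval of the ratio begins at 31. Gbp3 had 183 UMIs in Casp8-mutant and 3 in Mlkl-null epithelial-like cells, a ratio of 139 (54.4–790). Both were thus nearly undetected in the Mlkl-null epithelium. Gbp7 was the one GBP with a clear level there, at 58 UMIs or 10.9 (8.25–14) CPM in Mlkl-null cells, against 174 UMIs or 86.2 (73.9–100) CPM in Casp8-mutant cells. Its ratio of 7.89 (5.86–10.9) was the smallest of the 8, and its interval overlaps only that of Ifi47.

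The 3 regulator IRGs differed by similar factors. Irgm1 had 250 UMIs, 124 (109–140) CPM, in Casp8-mutant epithelial-like cells and 17 UMIs, 3.18 (1.85–5.10) CPM, in Mlkl-null ones, a ratio of 37.9 (23.8–67.9). Igtp had 145 UMIs in Casp8-mutant and 9 in Mlkl-null cells, a ratio of 40.5 (21.8–95.1). Irgm2 had 127 UMIs in Casp8-mutant and 9 in Mlkl-null cells, a ratio of 35.5 (19.1–83.5). Their intervals overlap each other, so no order among the 3 regulators can be drawn. Overlap of Igtp and Irgm2 in the annotation leaves their separate values uncertain.

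By point value or lower bound the effector IRGs lay on either side of the regulators, but the interval of each overlaps that of a regulator. Iigp1 (ENSMUSG00000054072) is a gene of chromosome 18, at 18:60376027-60392634 on the plus strand. Iigp1 had 132 UMIs, 65.4 (54.7–77.5) CPM, in Casp8-mutant epithelial-like cells and 0 in 1187 Mlkl-null cells, at least 116-fold higher by the limit of 3 UMIs, with an interval that begins at 93.4. Ifi47 had 111 UMIs, 55.0 (45.2–66.2) CPM, in Casp8-mutant and 17 UMIs, 3.18 (1.85–5.10) CPM, in Mlkl-null epithelial-like cells. Its ratio of 16.9 (10.3–30.7) overlaps those of the regulators. Among the 7 members with a searched window, Ifi47 was the one with neither motif, and Gbp7, with both, had a ratio of 7.89. A link between motifs and ratios was not tested.

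The 2 libraries filled different epithelial clusters, and markers of other cells moved with genotype. Casp8-mutant cells fell in clusters led by Tff2 and Gpx2, by Sprr2a3 and Ifit1, by small nuclear RNA genes, and by the goblet and defensin genes Zg16 and Defa24. Mlkl-null cells fell in clusters led by Fabp1 and Rbp2, by Afp and Gpx3, by Cd36 and Apoc2, by Edn1 and Ccnd2, by Rn7sk, and by Mptx1 and Fcgbp. Only 6 Mlkl-null cells lay in each of the clusters led by Tff2 and by Zg16. All 14 myeloid markers had UMIs in epithelial-like cells of both libraries, summing to 714 CPM in Casp8-mutant and 305 CPM in Mlkl-null cells. The 13 granulocyte markers summed to 3402 CPM in Casp8-mutant and 33.5 CPM in Mlkl-null epithelial-like cells, with Elane, Mpo, Cxcr2 and Csf3r at 0 in Mlkl-null cells. The 9 erythroid markers found in the matrices summed to 10483 CPM in Casp8-mutant and 3017 CPM in Mlkl-null epithelial-like cells. The part of these transcripts in the member levels was not tested. Leaving out cells with a UMI of a macrophage marker left 203 of 589 Casp8-mutant and 487 of 1187 Mlkl-null cells, with a summed log2 ratio of 5.08, against 4.77 in all cells.

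Clusters of the libraries that share leading genes gave a like difference. In goblet-led clusters the members summed to 423 CPM in 107 Casp8-mutant cells and 20.9 CPM in 80 Mlkl-null cells, a ratio of 19.5 (11.3–40.0). In clusters led by small nuclear RNA genes they summed to 739 CPM in 133 Casp8-mutant cells and 23.6 CPM in 126 Mlkl-null cells, a ratio of 29.5 (15.7–73.1). These pairs were chosen after the clusters were seen. Both ratios lie beyond counting error and their intervals overlap.

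The members did not vary alike between Casp8-mutant epithelial clusters. Their summed level was 1156 (1036–1286) CPM in the cluster led by Sprr2a3, 739 (659–827) in that led by small nuclear RNA genes, 423 (361–492) in the goblet-led one and 388 (348–430) in the Tff2-led one. Other interferon-induced genes, Ifit1 and Rsad2 among them, were also leading genes of the Sprr2a3-led cluster. The Sprr2a3-led cells had a median of 1664.5 UMIs and the Tff2-led cells 4519, so depth moved with the level, and its part was not tested. Between the Sprr2a3-led and Tff2-led clusters Gbp7 differed 5.86-fold (3.81–9.29), Gbp3 4.96-fold (3.32–7.55) and Irgm2 4.49-fold (2.81–7.32). Irgm1 differed 2.74-fold (1.99–3.77) and Igtp 2.63-fold (1.69–4.06). Iigp1 did not follow them: it had 54.7 CPM in Sprr2a3-led and 74.1 CPM in Tff2-led cells, a ratio of 0.756 (0.400–1.29). Gbp2 had 56.0 CPM in the goblet-led cluster, against 9.80 to 27.4 in the other 3 clusters. Clusters were made without the members, but their cells were grouped on the same libraries, and these values carry no test.

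**Figure D3:**
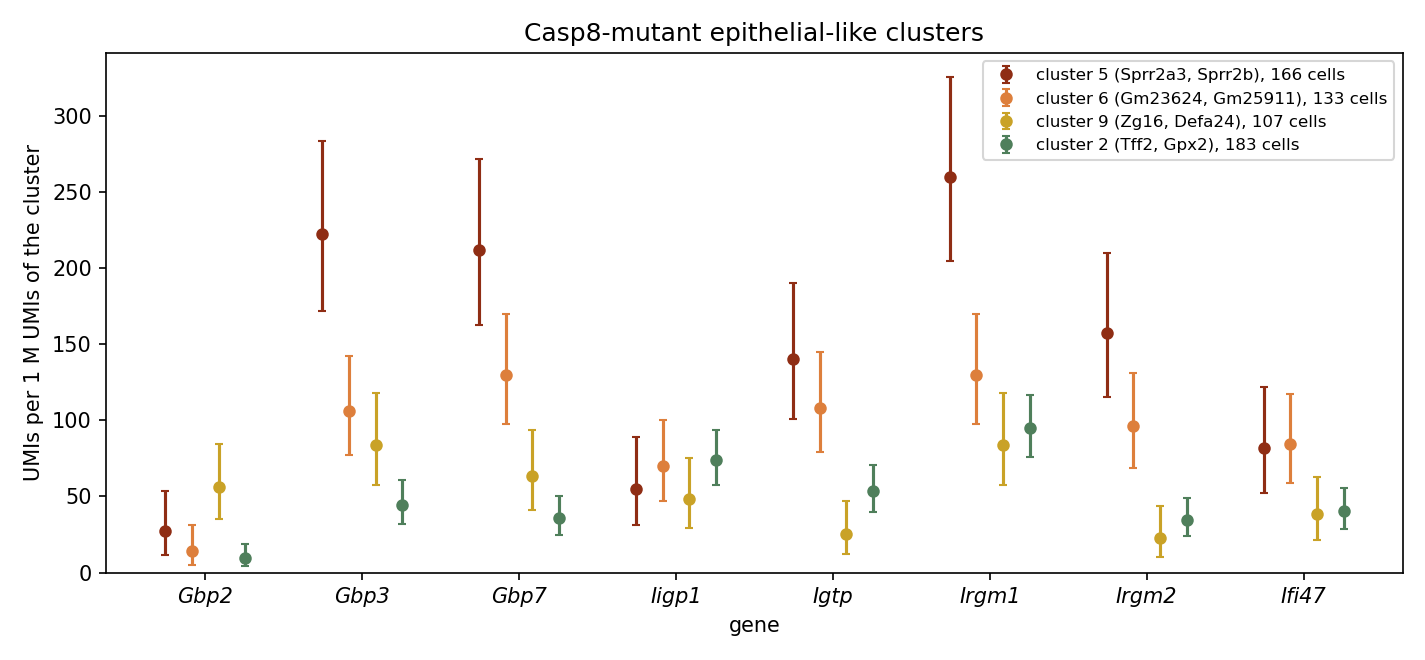
Level of each member in UMIs per 1 M UMIs of the cluster in the 4 Casp8-mutant epithelial-like clusters of more than 50 cells, with 95% Poisson intervals. By point value Gbp3, Gbp7, Igtp, Irgm1 and Irgm2 stand highest in the Sprr2a3-led cluster and Gbp2 in the goblet-led cluster. Among these only the intervals of Gbp3 and Irgm1 lie clear of the next highest cluster. The intervals of Iigp1 overlap in all 4.

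Most cells with a member UMI held 1 member at this depth. With each cell thinned to 1000 UMIs, 249 of 579 Casp8-mutant epithelial-like cells (43.0%, 38.9–47.2, Clopper-Pearson) and 29 of 1187 Mlkl-null ones (2.44%, 1.64–3.49) held a member UMI. Of those 249 Casp8-mutant cells 159 held a single member. Median depths before thinning were 2507 UMIs in Casp8-mutant and 3905 UMIs in Mlkl-null epithelial-like cells, and 10 Casp8-mutant cells and 0 Mlkl-null cells were too shallow. At full depth the shares were 73.2% of Casp8-mutant and 8.26% of Mlkl-null cells. At least 2 different members were found in 15.5% of the thinned Casp8-mutant cells and 0.0842% of the Mlkl-null cells. Both a GBP and an IRG were found in 62 Casp8-mutant cells and in 0 Mlkl-null cells. Member UMIs were found in many Casp8-mutant cells.

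Barcodes rich in haemoglobin give no background share at a matched depth. Of 179582 UMIs in the haemoglobin-dominated Casp8-mutant barcodes 40014 were not haemoglobin, and erythroid-like cells of both libraries had a median of 43% haemoglobin, so thinning to 1000 UMIs leaves them fewer other transcripts than epithelial-like cells. Thinned in this way, 14 of 121 haemoglobin-dominated barcodes of the Casp8-mutant library (11.6%, 6.47–18.7) and 0 of 38 of the Mlkl-null library held a member UMI, at median depths of 1362 and 2500.5 UMIs. Among erythroid-like cells the shares were 20% of 25 Casp8-mutant cells and 5% of 20 Mlkl-null cells. Per 1 M non-haemoglobin UMIs, Casp8-mutant epithelial-like cells had 584 member UMIs, erythroid-like cells 499.7 and haemoglobin-dominated barcodes 499.8 (305–772). The epithelial value lies inside that interval, so per non-haemoglobin UMI the Casp8-mutant epithelial level is not shown to exceed that of haemoglobin-rich barcodes. Per barcode they differed, at unlike depths. At full depth 18 of 121 haemoglobin-dominated Casp8-mutant barcodes (14.9%, 9.06–22.5) held a member UMI, with 20 UMIs in all. Among Casp8-mutant epithelial-like cells 431 of 589 (73.2%) did, with a mean of 1.98 member UMIs per cell. The part of free RNA in the epithelial level was not tested.

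**Figure D4:**
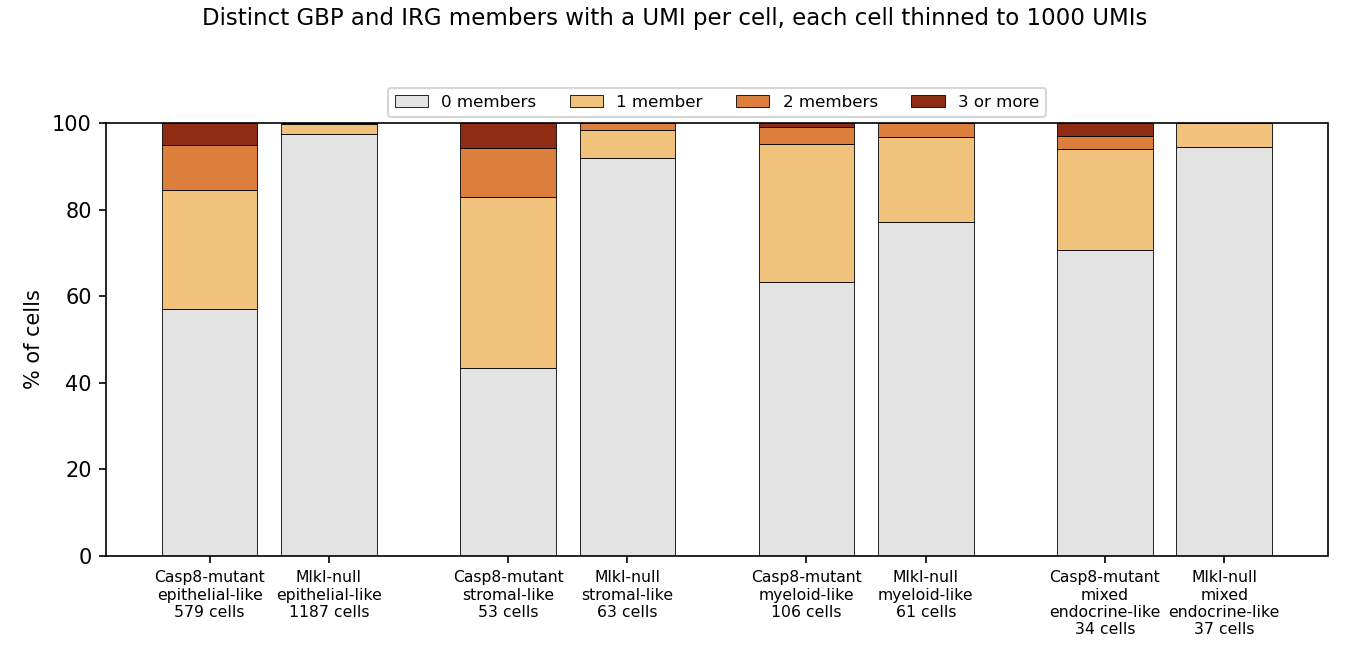
Share of cells (%) with UMIs of 0, 1, 2 or at least 3 different members after each cell was thinned to 1000 UMIs, in 4 classes, with Casp8-mutant left of Mlkl-null in each pair. Cells with any member make up 43.0% of Casp8-mutant and 2.44% of Mlkl-null epithelial-like cells, and 36.8% and 23% of myeloid-like cells.

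Stromal-like cells, which express collagen and contractile genes, also carried more member transcripts in the Casp8-mutant library. They had 138 UMIs, 886 (744–1046) CPM, in 55 Casp8-mutant cells and 19 UMIs, 72.7 (43.8–114) CPM, in 63 Mlkl-null cells, a ratio of 11.9 (7.51–20.8). A median of ratios over 1148 stromal genes would shift each log2 ratio by 0.14. All 8 members were at least 2-fold higher, but only 3 reached 20 UMIs in the class, where 11% of 3334 measured genes were that much higher. Of these 3, Gbp3 and Iigp1 were at least 8-fold higher, against 1.08% of measured genes. All 3 reached 20 UMIs only through the Casp8-mutant cells, so these counts too are descriptions. The 2 stromal-like clusters were filled unequally. In the contractile one, with 30 Casp8-mutant and 54 Mlkl-null cells, the ratio was 19.9 (9.66–51.7), and in the collagen-led one, with 25 and 9 cells, it was 5.19 (2.89–11.2). Smooth muscle markers summed to 1065 CPM in Casp8-mutant and 9276 CPM in Mlkl-null stromal-like cells. Granulocyte markers summed to 3119 CPM in Casp8-mutant stromal-like cells, with Cxcr2 at 0, and to 23 CPM in Mlkl-null ones, with 10 of 13 at 0. Erythroid markers summed to 9548.5 CPM in Casp8-mutant and 2380 CPM in Mlkl-null stromal-like cells, and the part of these transcripts was not tested.

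In the stromal-like class Gbp2 and Iigp1 lay furthest above the epithelial-like level of the Casp8-mutant library. Gbp2 had 27 UMIs, 173 (114–252) CPM, in Casp8-mutant and 7 UMIs, 26.8 (10.8–55.2) CPM, in Mlkl-null stromal-like cells, a ratio of 6.15 (2.75–17.6). Iigp1 had 33 UMIs in Casp8-mutant and 1 in Mlkl-null stromal-like cells, a ratio of 37.5 (9.26–2251). Gbp3 had 30 UMIs in Casp8-mutant and 2 in Mlkl-null stromal-like cells, a ratio of 20.5 (6.38–217). The other 5 members had 6 to 13 UMIs in Casp8-mutant and 0 to 5 in Mlkl-null stromal-like cells. Within the Casp8-mutant library, stromal-like cells had 7.83-fold (4.64–12.8) more Gbp2 than epithelial-like cells, 3.28-fold (2.14–4.77) more Iigp1 and 2.15-fold (1.39–3.14) more Gbp3. Irgm1 went the other way, at 38.5 (14.1–83.8) CPM in stromal-like against 124 in epithelial-like cells, a ratio of 0.336 (0.113–0.686). Gbp7, Igtp, Irgm2 and Ifi47 did not differ between these classes beyond counting error. Casp8-mutant myeloid-like cells shared part of this pattern. Over epithelial-like cells they had 4.53-fold (2.47–7.79) the Gbp2 and 0.443-fold (0.200–0.791) the Irgm1. Their Iigp1, at 1.08-fold (0.540–1.84), and Gbp3, at 0.605-fold (0.273–1.09), did not differ beyond counting error. The mix of members thus differed between cell classes of the same library.

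Among classes of at least 20 cells in each library, Mlkl-null cells had their highest member level in the myeloid-like class, and there the families parted. The 8 members had 85 UMIs, 445 (356–551) CPM, in 109 Casp8-mutant cells and 65 UMIs, 351 (271–448) CPM, in 61 Mlkl-null cells, a ratio of 1.26 (0.907–1.78). The IRGs had 45 UMIs in Casp8-mutant and 9 in Mlkl-null cells, a ratio of 4.64 (2.34–11.3). The GBPs had 40 UMIs in Casp8-mutant and 56 in Mlkl-null cells, a ratio of 0.695 (0.449–1.06), and without Gbp7 one of 1.04 (0.595–1.83). Of the 3 members with 20 UMIs in this class 0 were at least 2-fold higher, against 13.2% of 2903 measured genes, and 1 was at least 2-fold lower, against 11.7%. At least 8-fold higher levels were found for 0 of the 3, against 1.1% of measured genes. These 3 were the GBPs, and no IRG reached 20 UMIs. Of all 8 members 4 were at least 2-fold higher, all of them IRGs under that minimum, to which the shares of measured genes do not apply. Gbp7, the one lower, reached 20 UMIs only through the Mlkl-null cells, where it was high, so these counts too are descriptions. Granulocyte markers summed to 3991 CPM in Casp8-mutant and 32.4 CPM in Mlkl-null myeloid-like cells, with 1 and 11 of 13 at 0, and erythroid markers to 17354 and 3065 CPM. The part of these transcripts was not tested.

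Single myeloid values were small. Gbp7 had 11 UMIs, 57.6 (28.8–103) CPM, in Casp8-mutant and 29 UMIs, 157 (105–225) CPM, in Mlkl-null cells, a ratio of 0.378 (0.166–0.758). Gbp2 had 19 and 15 UMIs and Gbp3 10 and 12 UMIs in Casp8-mutant and Mlkl-null cells, with ratios whose intervals span 1. Iigp1 had 13 UMIs in Casp8-mutant and 0 in Mlkl-null cells, at least 4.20-fold higher with an interval that begins at 2.95, and Igtp had 10 UMIs in Casp8-mutant and 1 in Mlkl-null cells, a ratio of 6.78 (1.38–420). Irgm1 had 10 and 6 UMIs, Irgm2 5 and 0, and Ifi47 7 and 2 in Casp8-mutant and Mlkl-null cells. Over the epithelial-like, stromal-like, mixed endocrine-like and myeloid-like classes, Gbp7 in myeloid-like cells was the only case of an interval wholly below 1. Gbp2b, a GBP outside the 8, had 1 UMI in Casp8-mutant and 17 in Mlkl-null myeloid-like cells, a ratio of 0.0830 (0.00136–0.364).

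The Mlkl-null level rested on a cluster of 49 cells, led by Cd74, Apoe and the MHC class II gene H2-Ab1, that held no Casp8-mutant cell. It had 54 GBP UMIs, 355 (266–463) CPM, and 6 IRG UMIs, 39.4 (14.5–85.8) CPM. All 29 of the Mlkl-null myeloid Gbp7 UMIs and all 17 Gbp2b UMIs lay in it. In the other cluster, led by Ccl24 and C1qc, 109 Casp8-mutant cells had 85 member UMIs and 12 Mlkl-null cells had 5, a ratio of 2.66 (1.2–9.19). There the GBPs gave 2.77 (0.888–29.2) and the IRGs 2.23 (0.824–12.9), so the split between families was not seen in the shared cluster at this depth. Within the Mlkl-null library, myeloid-like cells had 16.7-fold (12–22.7) the member level of epithelial-like cells.

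The remaining classes were thin. Mixed endocrine-like cells had 25 member UMIs in 35 Casp8-mutant cells and 4 in 37 Mlkl-null cells, 383 (248–566) and 26.3 (7.15–67.2) CPM, a ratio of 13.2 (5.04–57.7). None of the 8 reached 20 UMIs there, and 8.65% of 1642 measured genes were at least 2-fold and 0.914% at least 8-fold higher, while a median of ratios would shift log2 values by 0.23. Lymphoid-like cells had 19 UMIs in 22 Casp8-mutant cells and 4 in 13 Mlkl-null cells, of which 17 and 2 were IRG UMIs. That is 539 (324–841) CPM in Casp8-mutant and 145 (39.6–372) CPM in Mlkl-null lymphoid-like cells, a ratio of 3.38 (1.23–15). Granulocyte-like cells had 20 UMIs in 21 Casp8-mutant cells, with 1 Mlkl-null cell and so no comparison. Erythroid-like cells had 14 UMIs in 25 Casp8-mutant cells and 1 in 20 Mlkl-null cells.

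Ordered by summed level over groups of at least 20 cells, which leaves out Mlkl-null lymphoid-like cells, Casp8-mutant stromal-like cells stood highest at 886 CPM, then epithelial-like (578), lymphoid-like (539), myeloid-like (445), mixed endocrine-like (383), erythroid-like (351) and granulocyte-like cells (340). Mlkl-null myeloid-like cells (351) lay within that range. Mlkl-null stromal-like (72.7), mixed endocrine-like (26.3), epithelial-like (21.2) and erythroid-like cells (14.1) lay below it. Haemoglobin UMIs count in these totals, so the rank of erythroid-like cells, with a median of 43% haemoglobin, depends on the scale. Per 1 M non-haemoglobin UMIs erythroid-like cells had 499.7 in the Casp8-mutant library and 31.3, from 1 UMI, in the Mlkl-null library. On that scale Casp8-mutant myeloid-like cells had 454 and mixed endocrine-like cells 387. Mlkl-null mixed endocrine-like cells had 26.3 and epithelial-like cells 21.2. Stromal-like and epithelial-like Casp8-mutant cells differed 1.54-fold (1.27–1.83) and myeloid-like over epithelial-like 0.774-fold (0.611–0.961), beyond counting error, while the classes of fewer than 50 cells had intervals that overlap their neighbours.

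Across these 12 groups the genes outside the chosen lists whose levels ran most like the summed members were Bst2 (Pearson r = 0.97), B2m (r = 0.94), Gm22758 (r = 0.94), Zbp1 (r = 0.94), Gm16288 (r = 0.93), Gm14173 (r = 0.92), Gm6807 (r = 0.92), Gm7079 (r = 0.92), Psmb8 (r = 0.92) and Ifi27l2a (r = 0.91). The groups share 2 libraries and their depths, so this is a description. Each member's own level correlated with the sum of the other 7 at r between 0.52 for Irgm2 and 0.84 for Irgm1.

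Other GBPs, and other IRGs except Irgq, had fewer UMIs in epithelial-like cells than any of the 8 members. Of 8 other GBPs none reached 20 UMIs in epithelial-like cells, and together they had 53 UMIs in Casp8-mutant and 7 in Mlkl-null cells. Gbp5, which promotes inflammasome assembly, had 18 UMIs in Casp8-mutant and 1 in Mlkl-null cells, a ratio of 32.6 (7.52–1984), and Gbp9 had 16 and 0. Gbp8 had 7 and 2, Gbp4 8 and 4, and Gbp6 and Gbp11 each 2 and 0 in Casp8-mutant and Mlkl-null cells, while Gbp2b and Gbp10 had 0 in both. Of 11 other IRGs, Gm4951 had 17 UMIs, Gm5431 16, Tgtp1 11, Gm4841 7, Tgtp2 6, Gm12185 5 and F830016B08Rik 4 in Casp8-mutant cells and each 0 in Mlkl-null cells. Tgtp1 and Tgtp2 are near-identical copies, so their split is uncertain. Irgq, a more distant relative, had 10 UMIs in Casp8-mutant and 47 in Mlkl-null epithelial-like cells, a ratio of 0.585 (0.254–1.13). The antiviral GTPase Mx1 had 76 UMIs in Casp8-mutant and 0 in Mlkl-null cells, at least 67-fold higher with an interval that begins at 53.2, and Mx2 had 59 and 2, a ratio of 63 (20.7–659).

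Upstream genes split by role in epithelial-like cells. Interferon transcripts were hardly captured: the 12 ligand genes had 4 UMIs in Casp8-mutant cells, from Ifnb1, Ifnl2 and Ifnl3, and 1 in Mlkl-null cells, and Ifng had 0 in both. Of all measured genes in the class, 18.2% were at least 2-fold higher and 19% at least 2-fold lower, and the counts of each list stand against these shares. Of 6 receptor chains, 0 were 2-fold higher or lower, with a median log2 ratio of -0.13. The lowest were the interferon lambda receptor chains Il10rb (0.505, 0.397–0.630) and Ifnlr1 (0.543, 0.282–0.929). Of 9 transducers, 4 were at least 2-fold higher and 1 lower. Irf7, an interferon-induced transcription factor, had 553 CPM in Casp8-mutant and 36.9 in Mlkl-null cells, a ratio of 15 (12.9–17.5). The kinase Tyk2 was the one past 2-fold downwards (0.475, 0.208–0.900), and the kinase Jak1 stood at 0.514 (0.366–0.697). Of 5 feedback inhibitors 2 were higher, Usp18 by 39.8-fold (24.8–72.9) and Socs1 by 6.45-fold (4.15–10.5), and 0 passed 2-fold downwards, with Pias1 lowest at 0.503 (0.262–0.857).

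Other targets followed the division between interferon types only in part. All 12 genes listed as led by type I and III interferon were at least 2-fold higher in Casp8-mutant epithelial-like cells, with a median log2 ratio of 4.87, with Oas2 (216-fold, 73.8–2243) and Ifi44 (177-fold, 46.4–10553) at the top and Oas1a (14.5-fold, 10.2–21.9) and Ifit1 (7.38-fold, 6.64–8.23) at the bottom. Of 7 measured genes listed as led by interferon gamma, 4 passed 2-fold upwards and 0 downwards, and their median log2 ratio was 1.47. Ido1, which breaks down tryptophan, had 85 UMIs in Casp8-mutant and 0 in Mlkl-null cells, at least 75-fold higher with an interval that begins at 59.6, and the chemokine Cxcl10 differed 35.5-fold (22–65.1). The lowest were Cd74, the invariant chain of MHC class II (0.723, 0.539–0.947), and the MHC class II gene H2-Ab1 (0.566, 0.364–0.833). Both also led a myeloid-like cluster of 49 Mlkl-null and 0 Casp8-mutant cells, and the part of free myeloid RNA in these values was not tested.

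The genes that load GBPs and IRGs onto membranes were not higher. Of 10 genes of ATG8 conjugation 0 were 2-fold higher and 4 were 2-fold lower, against 19% of all measured genes, with a median log2 ratio of -0.70. Gabarap, an ATG8 protein, had 319 CPM in Casp8-mutant and 720 in Mlkl-null cells, a ratio of 0.444 (0.407–0.482), and the conjugating enzyme Atg3 gave 0.451 (0.320–0.613). Gabarapl2 (0.989, 0.738–1.30) and Gabarapl1 (0.751, 0.485–1.11) had intervals that span 1. Of 12 constitutive GTPases 0 passed 2-fold upwards and 2 downwards, and their median log2 ratio was -0.30: Sar1b, of vesicle budding, at 0.397 (0.319–0.486) and Rab11a, of recycling endosomes, at 0.491 (0.440–0.546). Ran and Arf6 stood highest among them, at 1.39 (1.26–1.54) and 1.35 (1.19–1.52).

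**Figure D5:**
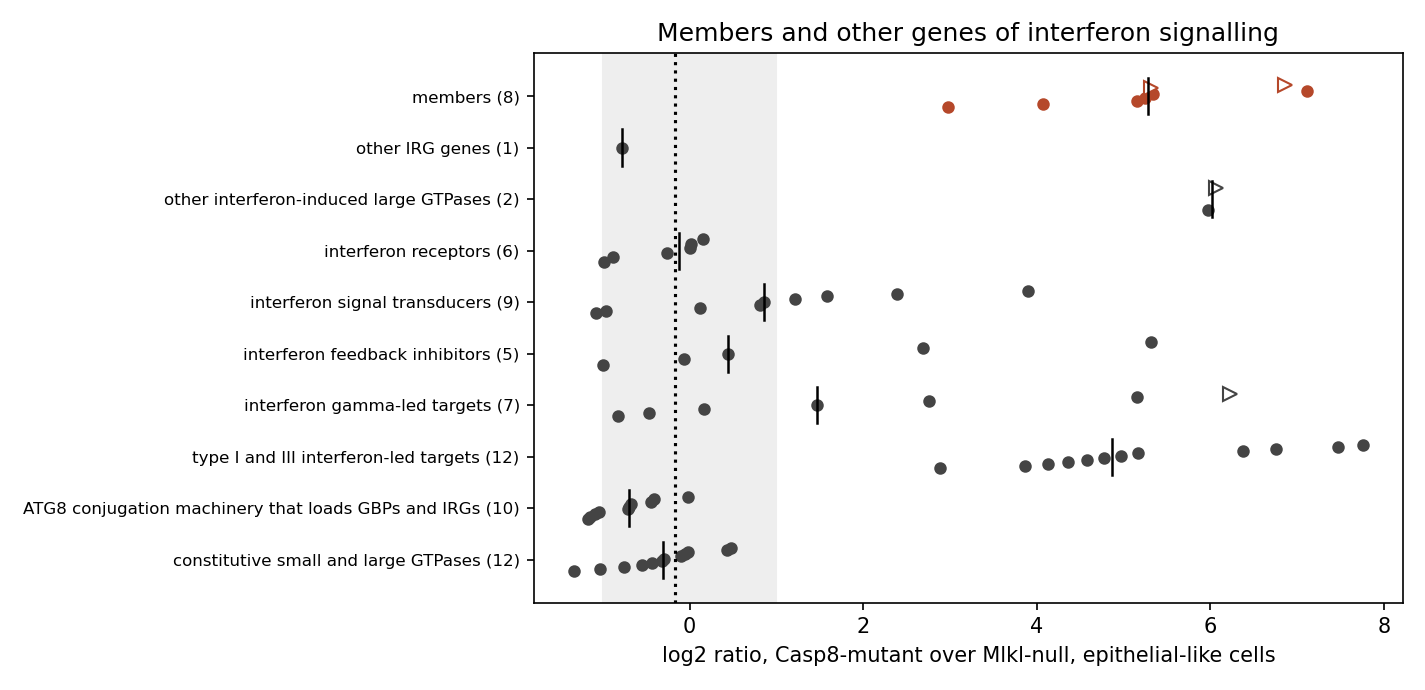
Log2 ratio, Casp8-mutant over Mlkl-null, of each measured gene (20 or more UMIs) in epithelial-like cells, by gene list with the number of genes in brackets; open triangles are lower bounds for genes at 0 in Mlkl-null, short lines are list medians with such genes at their bound, the grey band is under 2-fold and the dotted line is the median of all 13967 genes. The members lie from 2.98 upwards, within the plotted range of the type I and III interferon-led targets, whose lowest, Ifit1, lies just below 2.98. The 6 receptors lie within the grey band.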

How the data were processed

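Gene by barcode matrices of 2 libraries of 10x Chromium 3′ v2 chemistry, 1 per embryo, were used, grouped by the genotype in the labels. The deposited values are raw counts of UMIs per gene and barcode, whole numbers as checked here. Per the submitters' processing notes, Cell Ranger 3.0.2 and Seurat 3.0 were used with mm10. The sources used here do not state how barcodes were chosen or whether counting used strand. No row was a total. Gene names (52403 of 52636 IDs) came from GENCODE M21.

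The members and gene lists were chosen with earlier results of these data known. Barcodes with under 500 genes (139 Casp8-mutant, 39 Mlkl-null) or over 20% mitochondrial UMIs (0 in each) were left out, as were doublets called by Scrublet (2 and 4), a number that leaves undetected doublets possible. With scanpy 1.11.5, the 2308 cells were scaled to 10000 UMIs and clustered together on 3378 variable genes, without interferon-induced and sex-linked genes (30 components, 15 neighbours, Leiden resolution 1, leidenalg 0.10.2, no integration). Clusters were named from listed markers. The scoring (at least 3 markers of a class among 50 leading genes, or at least 12 detected epithelial markers), and the merging of fibroblast, smooth muscle and mesothelial markers into the stromal-like class, were settled after the clusters were seen. Names are rebuilt and may differ from the study's own.

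UMIs were summed per class and library and given per 1 M UMIs (CPM) with exact Poisson intervals. Ratios are Casp8-mutant over Mlkl-null with 0.5 UMI added to each sum and conditional exact 95% intervals; a gene at 0 was set to 3 UMIs over the class for a lower bound. A gene counted as measured with 20 UMIs over both libraries. Because 3′ tags count transcript ends, levels of different genes were not compared. Named genes were the 8 members, and of each list the GBP or IRG genes and, with 20 UMIs in epithelial-like cells, the 2 highest and 2 lowest; the 10 genes most like the members were ranked by correlation of log2 of the level plus 10 over groups of at least 20 cells. H2-Aa, Psmb9, Isg15 and other list genes were counted but not described. The ratio script was tested on simulated counts. Alternatives changed the scaling, cell filter, doublets, resolution, clustering genes, joint clustering, haemoglobin, added UMI, thinning and gene minimum; 3 were chosen after seeing the data.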

Additional observations from a re-analysis of the deposited data

Results flagged for a closer look

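Gbp7 had a log2 ratio of -1.40 in myeloid-like cells, against 2.98 in epithelial-like, 2.04 in stromal-like and 2.60 in mixed endocrine-like cells, so that the direction of the genotype difference was opposite between classes. The difference between classes was not tested, and the Mlkl-null myeloid UMIs lay in the cluster of 49 cells that held no Casp8-mutant cell.

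In haemoglobin-dominated barcodes, which were left out of the classes, the members reached 499.8 per 1 M non-haemoglobin UMIs in the Casp8-mutant library, against 0 UMIs in the Mlkl-null library.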

How the results depend on the processing

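No paired analysis was possible because each genotype has 1 embryo; for the same reason no replicate could be left out. Of 73 alternative values of the main results 62 moved by less than counting error and 11 by more, and of 104 values of single members 102 and 2; 0 changed direction. The summed epithelial-like log2 ratio of 4.77 became 5.14 at resolution 0.5 and 5.08 without cells holding a macrophage marker, over a whole range of 4.67 to 5.14. The stromal-like value ran from 3.41 to 4.13. The myeloid-like value of 0.34 became 1.41 within the shared cluster and was 0.28 at its lowest. The count of members at least 2-fold higher in the epithelium was 7 or 8. It leaves out a member under the gene minimum, and no member's own log2 ratio fell below 2.79 in any alternative. The Casp8-mutant share of 43.0% became 38.6% with at least 1000 genes per cell, 51.9% at resolution 0.5, 53.4% thinned to 2000 UMIs, 73.2% at full depth, 37.0% without clusters led by small nuclear RNA genes and 51.5% without macrophage-marker cells. The Mlkl-null share of 2.44% became 4.54% thinned to 2000 UMIs and 8.26% at full depth. The cause of the changes with resolution was not tested; shares at higher depth hold more UMIs by construction. At resolution 0.5 the class held 379 Casp8-mutant cells, against 589 as reported. At 0 UMIs in Mlkl-null epithelial-like cells, Gbp2 and Iigp1 were not detectable at this depth, which does not show that they were absent.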
